A study of Danio rerio with 3 samples.

Results

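Collagens other than types II, IX, X and XI were examined in cartilage of the occipital cranial base of zebrafish larvae. They were chosen by name, as every row of the count table with a collagen chain symbol that does not belong to those 4 types. The rule found 32 of the 14417 rows. Of these, 31 are collagen chains and 1, col4a3bpa, is a ceramide transfer protein that only shares the start of the name, so it was kept out of all collagen counts. The samples were wild-type larvae at 6 days post-fertilization (dpf), from which cartilage without perichondrium had been cut by laser out of tissue sections. After 1 round of amplification, the RNA of 3 independent samples was sequenced, and these libraries are called Z1, Z3 and Z6 as in their titles. No treated, mutant or control samples were included, and how many larvae went into each library is not stated in the sources used here. No test between conditions was therefore possible, and each result is a level, its spread over the libraries, or a share set beside the same share over all genes.

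Collagens are made of 3 chains wound into a triple helix, and the kind of assembly that the helices build defines the class. Fibrillar collagens (I, V and XXVII here) form the load-bearing fibrils. Type IV builds the sheet-like network of basement membranes, and type VIII forms a network of short chains. FACIT collagens (XII, XIV, XVI and XIX here) have interrupted helices and sit on the surface of fibrils or near basement membranes. Type VI forms beaded filaments, which in mammalian cartilage are concentrated in the matrix just around each chondrocyte. Transmembrane collagens (XIII, XVII and XXV) are anchored in the cell membrane, and the multiplexins (XV and XVIII) carry glycosaminoglycan chains and lie at basement membranes. Hyaline cartilage is known for types II, IX and XI, whereas collagen I marks bone, skin, tendon and perichondrium.

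The libraries held from 18920027 to 25604897 counts, of which 34.7% to 59.0% fell on a single row, AC024175.4. Normalized counts are counts divided by the effective library size (TMM, a trimmed mean of log ratios between libraries) and multiplied by the mean size, so that 1 read was worth from 0.947 to 1.102 normalized counts. The counts are not corrected for transcript length, so levels of different genes are not ranked here, and sums over genes are sums of reads. A count of 0 allows up to 3 reads, which is 2.90 normalized counts in Z1, 3.30 in Z3 and 2.84 in Z6. Such limits and all counting intervals below are 95% intervals that cover counting error only, since amplified reads are not independent molecules. The tissue label was checked against 22 chondrocyte markers. Of these, 18 were found, and they summed to between 990797 and 1589148 normalized counts per library. Each reached 10 normalized counts in all libraries, but so did 67.8% of all genes and all 10 skeletal muscle markers found. That minimum alone therefore does not set cartilage apart. A lower level in a bulk sample can mean fewer cells of a type or less RNA per cell, and these cannot be told apart.

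Of the 31 collagen rows, 20 reached a minimum of 10 normalized counts in all libraries. That is 64.5% of the rows, beside 67.8% of all 14417 genes, so these collagens passed the minimum about as often as other genes did. By class, the rows that passed were 7 of 9 fibrillar, 2 of 7 network, 4 of 5 FACIT, 3 of 4 beaded filament, 3 of 4 transmembrane and 1 of 2 multiplexin rows. The 11 rows that did not pass were col5a2b, col5a3a, col4a4, col4a5, col4a6, col8a1b, col8a2, col19a1, col6a6, col17a1a and col18a1. No row had 0 reads in all libraries, and 5 rows had 0 reads in at least 1 library, counts for which no share over all genes is given here.

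**Figure D1:**
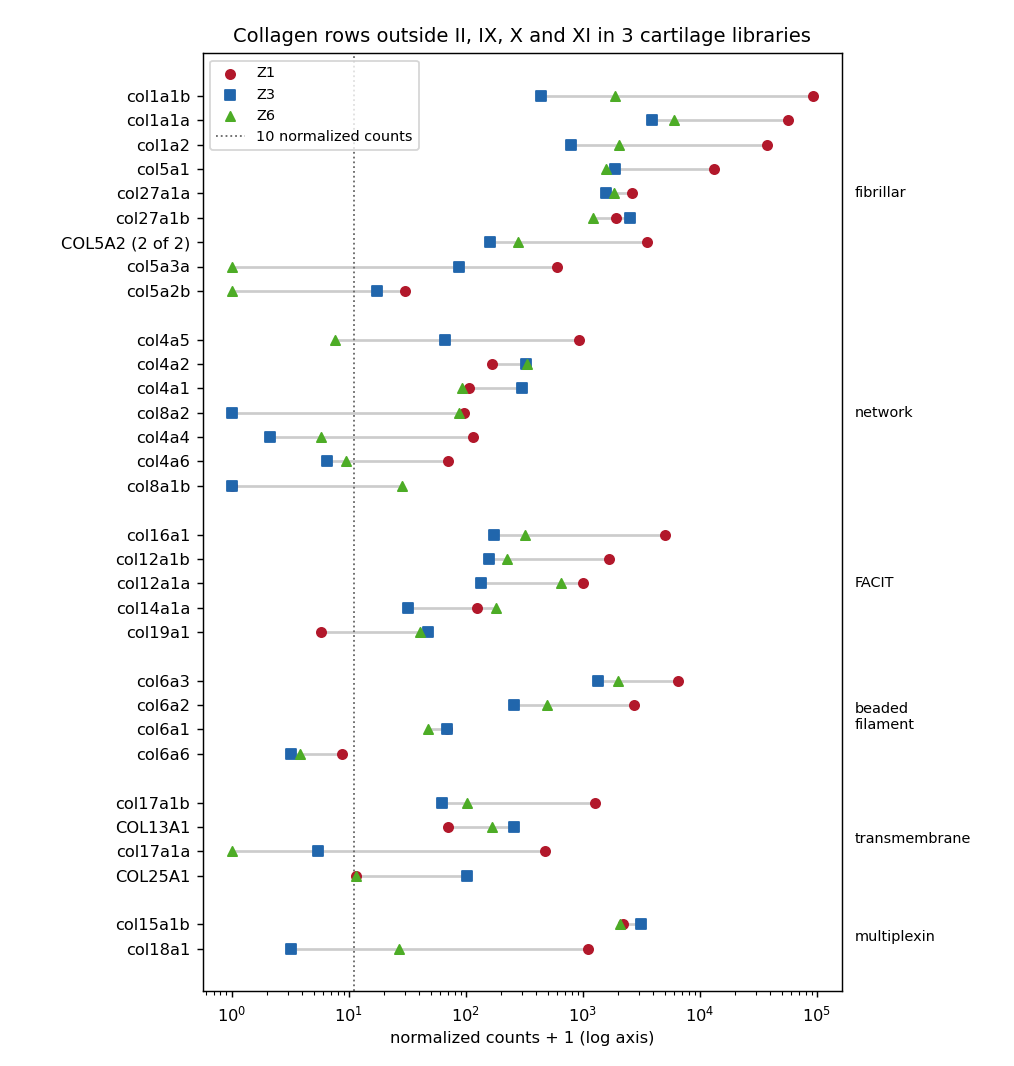
Normalized counts plus 1 (log axis) of the 31 collagen rows, grouped by class, with 1 point for each library and a dotted line at 10 normalized counts. The 3 collagen I rows and col5a1, col16a1 and col6a3 have Z1 far to the right of the other libraries, whereas the points of col27a1a, col27a1b and col15a1b lie close together. For col6a1 and col8a1b the point of Z1 lies under that of Z3.

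The libraries differed far more in these collagens than in the collagens of the cartilage fibril. Summed over the 31 rows, the counts were 231273 normalized counts in Z1, 17830.1 in Z3 and 21728 in Z6. Summed over the 9 rows of collagens II, IX and XI, they were 787746, 808748 and 1204126 normalized counts in the same order. Z1 thus held 12.97 times the member sum of Z3 and 10.6 times that of Z6, but 0.974 and 0.654 times their sums of collagens II, IX and XI. As a percentage of the counts of II, IX and XI, the 31 rows came to 29.4% in Z1, 2.205% in Z3 and 1.80% in Z6. Of all counts other than those of AC024175.4, the 31 rows took 2.28% in Z1 (Wilson interval 2.27 to 2.29%), 0.164% in Z3 (0.162 to 0.167%) and 0.186% in Z6 (0.183 to 0.188%).

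In most single rows, too, Z1 was the highest. Each row's highest library was divided by its lowest, on normalized counts plus 1, where the mean reached 10 normalized counts. It exceeded 3-fold in 24 of 29 such collagen rows, beside 54.2% of genes with that mean. Without any minimum it did so in 25 of 31 rows, beside 56.3% of all genes. The median ratio over the 31 rows was 10.6, beside 3.54 over all genes. It was 1.77 over the 9 rows of collagens II, IX and XI, of which 1, col9a1, exceeded 3-fold. Z1 was the highest library for 21 of the 29 rows (35.4% of genes with that mean), Z3 for 6 rows (32.6% of genes) and Z6 for 2 rows (32.0% of genes). In a count chosen after the values had been seen, Z1 exceeded each of the other libraries by more than 3-fold in 16 of 29 rows, beside 9.03% of genes. The same 16 were counted among all 31 rows, beside 9.09% of all genes. Of the 29 rows, 3 (col17a1a, col4a4 and col4a6) reached 10 normalized counts in Z1 alone and so passed the minimum mean through it, which favours a difference. The same holds for col5a2b, whose mean over Z3 and Z6 was 8.26. It is counted among the rows over 3-fold and those highest in Z1, but not among the 16.

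Fewest rows differed over 3-fold when Z1 was left out, 10, against 19 without Z3 and 22 without Z6. Between Z3 and Z6 alone, 10 of 26 collagen rows whose mean over these libraries reached 10 differed over 3-fold, beside 27.9% of genes. Of these 10, col5a3a, col8a1b, col8a2, col18a1 and col4a5 reached that mean through Z3 or Z6 alone, which favours a difference. Dropping a library can only narrow the ratio of a row, and the share over all genes was also lower than the 54.2% across all libraries. For the other pairs of libraries no share over all genes is given.

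**Figure D2:**
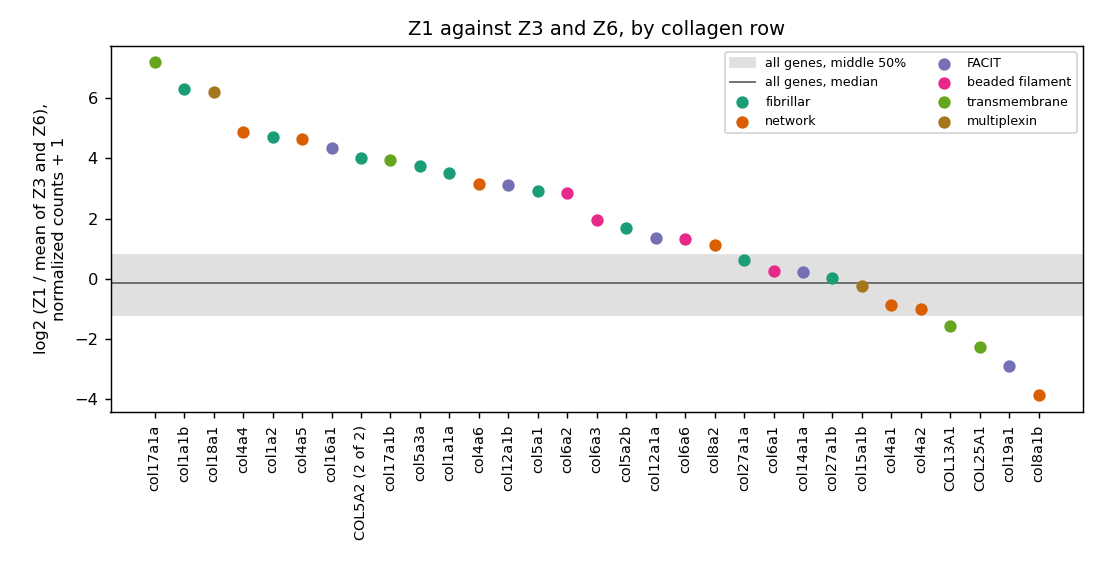
Level in Z1 divided by the mean of Z3 and Z6, as log2 (normalized counts + 1) for each of the 31 collagen rows, coloured by class and sorted. The grey band holds the middle 50% of all genes whose mean reached 10 normalized counts (-1.22 to 0.79) around their median of -0.15, with 20 of the 31 rows above it and 4 below it.

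Collagen I, the main collagen of bone, skin and tendon, set most of this difference. In zebrafish its helix is built from the chains of col1a1a, col1a1b and col1a2. The α1 chain gene col1a1a had 56620.5 normalized counts in Z1, 3876 in Z3 and 5989 in Z6. For col1a1b, the other α1-like chain, they were 91710.5, 435 and 1864 normalized counts in the same order. The α2 chain gene col1a2 had 37406 normalized counts in Z1, 784 in Z3 and 2045 in Z6. All 3 chains were highest in Z1 and lowest in Z3. Z1 exceeded Z3 by a factor of 14.6 for col1a1a (counting interval 14.1 to 15.1), 47.7 for col1a2 (44.3 to 51.4) and 211 for col1a1b (191 to 233).

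The chains of collagen I therefore stood in different proportions in each library, a measure in which transcript length cancels when libraries are compared. There were 1.62 reads of col1a1b for each read of col1a1a in Z1 (counting interval 1.60 to 1.64), 0.112 in Z3 (0.101 to 0.125) and 0.311 in Z6 (0.296 to 0.328). For col1a2 the ratio to col1a1a was 0.661 in Z1 (0.652 to 0.669), 0.202 in Z3 (0.186 to 0.219) and 0.342 in Z6 (0.325 to 0.359). In both ratios the order of the libraries was Z1, Z6 and Z3, and none of the intervals overlapped. Together the 3 rows made up 80.3% of the member sum in Z1, 28.6% in Z3 and 45.6% in Z6.

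Collagen V, which starts fibrils and limits their diameter, was measured by 4 rows. The α1 chain gene col5a1 had 13187 normalized counts in Z1, 1896 in Z3 and 1585 in Z6. An α2 chain row listed as COL5A2 (2 of 2) had 3525, 159 and 277 normalized counts in the same libraries. Both were highest in Z1, whereas Z3 and Z6 lay within 2-fold of each other. The α3 chain row col5a3a had 594 normalized counts in Z1, 87.0 in Z3 and 0 reads in Z6, so Z1 was at least 209 times higher than Z6. For the second α2 row, col5a2b, there were 30, 15 and 0 reads in Z1, Z3 and Z6.

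Collagen XXVII, a fibrillar collagen of cartilage and, in zebrafish, of the notochord and vertebral column, was the exception among the fibrillar types. Its row col27a1a had 2636 normalized counts in Z1, 1567 in Z3 and 1847 in Z6 (2017 ± 554, SD, n = 3). The paralog col27a1b had 1925, 2540.1 and 1224 normalized counts in the same order (1896 ± 658). Neither row differed by more than 2.07-fold between libraries, and the order of the libraries was not the same for both. There were 0.730 reads of col27a1b for each of col27a1a in Z1 (counting interval 0.689 to 0.774), 1.62 in Z3 (1.52 to 1.73) and 0.663 in Z6 (0.617 to 0.711). Summed, collagen XXVII took 1.97% of the member sum in Z1, 23.04% in Z3 and 14.1% in Z6.

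Within the network class, the chains of type IV collagen split into groups that did not vary together. The genes col4a1 and col4a2 encode the chains of the α1α1α2 helix found in nearly all basement membranes, and they are next to each other in RefSeq. Of these, col4a1 had 106 normalized counts in Z1, 301 in Z3 and 90.9 in Z6, and col4a2 had 165, 327 and 334. Z1 was the lowest for col4a2 and within 2-fold of Z6 for col4a1, unlike in most other members. The read ratio of col4a2 to col4a1 was 1.55 in Z1 (counting interval 1.22 to 1.99), 1.09 in Z3 (0.920 to 1.29) and 3.68 in Z6 (2.93 to 4.66).

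The minor type IV chains, used in specialised basement membranes such as those of the kidney and, for α5 and α6, of the skin in mammals, were highest in Z1. The row col4a5 had 929 normalized counts in Z1, 65.0 in Z3 and 6.63 in Z6. Its neighbour in RefSeq, col4a6, had 69.5, 5.51 and 8.52 normalized counts, and col4a4 had 114, 1.102 and 4.73. Reads of col4a5 outnumbered those of col4a1 by 8.75 to 1 in Z1 (7.17 to 10.8), against 0.216 to 1 in Z3 (0.160 to 0.287) and 0.0729 to 1 in Z6 (0.0286 to 0.156). The level of col4a4 in Z3 was a single read, and the ratio of Z1 to it, 103, had an interval of 18.2 to 4118. Collagen VIII, made by endothelial cells and, in zebrafish, by the notochord, was not detected in every library. Its row col8a2 had 98, 0 and 91 reads in Z1, Z3 and Z6, and col8a1b had 29 reads in Z6 and none in the others.

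Among the FACIT collagens, type XVI varied most. The row col16a1, whose product lies close to fibrils and basement membranes, had 5015 normalized counts in Z1, 174 in Z3 and 322 in Z6. It is the next protein-coding gene after col9a2 in RefSeq, and col9a2 had 144778, 163649 and 215176 normalized counts in the same order. The neighbours thus differed in order, with Z1 highest for col16a1 and lowest for col9a2. Collagen XII, a fibril-associated collagen of dense connective tissue and fascia, has a pair of rows. For col12a1a there were 1004, 134 and 643 normalized counts in Z1, Z3 and Z6, and for col12a1b 1667, 158 and 223. Z6 was nearer to Z1 in col12a1a and nearer to Z3 in col12a1b, and the read ratio of col12a1b to col12a1a was 1.66 in Z1 (1.54 to 1.80), 1.17 in Z3 (0.914 to 1.505) and 0.348 in Z6 (0.298 to 0.404).

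Neither of the remaining FACIT rows was highest in Z1. For col14a1a, which binds fibrils in skin and tendon, there were 123 normalized counts in Z1, 30.8 in Z3 and 181 in Z6. The row col19a1, whose product is found at basement membranes and, in mammals, at muscle and nerve, had 4.83, 46.3 and 39.8 normalized counts. It was lowest in Z1, with 5 reads there against 42 in each of the others.

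Type VI collagen is a helix most often of α1, α2 and α3 chains, encoded by col6a1, col6a2 and col6a3. The row col6a3 had 6429 normalized counts in Z1, 1346 in Z3 and 2001 in Z6. For col6a2 the values were 2719, 257 and 489.5 normalized counts, in the same order of libraries. By contrast, col6a1 had 68.5, 68.3 and 46.4 normalized counts (61.1 ± 12.7, SD, n = 3), the smallest spread of all 31 rows, with a highest-to-lowest ratio of 1.47. The partners col6a2 and col6a1 therefore did not keep one proportion. Reads of col6a2 per read of col6a1 were 39.7 in Z1 (counting interval 31.4 to 50.9), 3.76 in Z3 (2.83 to 5.06) and 10.6 in Z6 (7.86 to 14.4). The fourth row, col6a6, had 8, 2 and 3 reads, and no difference between libraries was detectable at this depth.

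The transmembrane class held members of both orders. Collagen XVII, a component of the hemidesmosomes that fasten basal epidermal cells to their basement membrane, was highest in Z1. The row col17a1b had 1257 normalized counts there, 61.7 in Z3 and 100.4 in Z6. For col17a1a there were 486, 4 and 0 reads in Z1, Z3 and Z6, so that Z1 was 106 times higher than Z3 (41.3 to 392) and at least 165 times higher than Z6. The other transmembrane rows were highest in Z3. COL13A1, whose product is found at cell junctions and at the neuromuscular synapse, had 69.5, 254 and 166 normalized counts in Z1, Z3 and Z6. COL25A1, which takes part in motor innervation of muscle in mice, had 10.6, 100.2 and 10.4 normalized counts, and without Z3 its mean fell to 10.5, against 40.4 over all libraries.

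The multiplexins differed from each other. The row col15a1b, one of the collagen XV paralogs, had 2207 normalized counts in Z1, 3130.5 in Z3 and 2087 in Z6 (2475 ± 571, SD, n = 3). In contrast, col18a1, which encodes the precursor of endostatin and is a proteoglycan of epithelial and vascular basement membranes, had 1113, 2.203 and 25.6 normalized counts. Only 2 reads of col18a1 were counted in Z3, and the ratio of Z1 to Z3 was 505 with an interval of 140 to 4176. Z1 was also 43.5 times higher than Z6 (29.8 to 66.3). With col5a3a and col17a1a, col18a1 had the largest highest-to-lowest ratios on the plus 1 scale, where the first pair is divided by a library at 0 reads. Their bounds of at least 209 and at least 165 do not place them above col1a1b, at 211.

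Because of these differences the classes made up unequal shares of the member sum in each library. Shares within a library do not depend on its scaling, and their counting intervals reached at most 0.741 percentage points to either side. The fibrillar share was 89.8% in Z1, 63.7% in Z3 and 68.3% in Z6 (73.9 ± 13.9%, SD, n = 3). Beaded filament collagen had 3.99%, 9.38% and 11.7% (8.35 ± 3.95%), and FACIT collagens had 3.38%, 3.05% and 6.48% (4.30 ± 1.90%). The multiplexin share was 1.44%, 17.6% and 9.72% (9.58 ± 8.07%), and it averaged 5.58% without Z3. Network collagens had 0.639%, 3.92% and 2.57% (2.38 ± 1.65%) and transmembrane collagens 0.781%, 2.36% and 1.27% (1.47 ± 0.81%). The fibrillar share was the largest in each library. The means of the multiplexin and beaded filament shares differed by less than the larger of their SDs, as did those of the network and transmembrane shares. The gaps between beaded filament and FACIT collagens (4.05 percentage points) and between FACIT and network collagens (1.93 points) were just above the larger SD. Such an SD is that of 1 share and does not measure the spread of a gap within libraries. The beaded filament share exceeded the FACIT share in each library, whereas in Z3 the network share exceeded the FACIT share. All are shares of reads, uncorrected for transcript length.

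Without the 3 collagen I rows the range of the shares over the libraries was narrower in 2 classes, fibrillar and network, and wider in 4. The fibrillar share of the remaining 28 rows was 48.1% in Z1, 49.2% in Z3 and 41.7% in Z6. FACIT collagens had 17.2%, 4.26% and 11.9% in the same order, a range of 12.9 percentage points against 3.44 with collagen I included, and multiplexins had 7.29%, 24.6% and 17.9%. The sum of the 28 rows was 45537 normalized counts in Z1, 12735 in Z3 and 11830.0 in Z6, so Z1 remained 3.58 and 3.85 times higher.

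**Figure D3:**
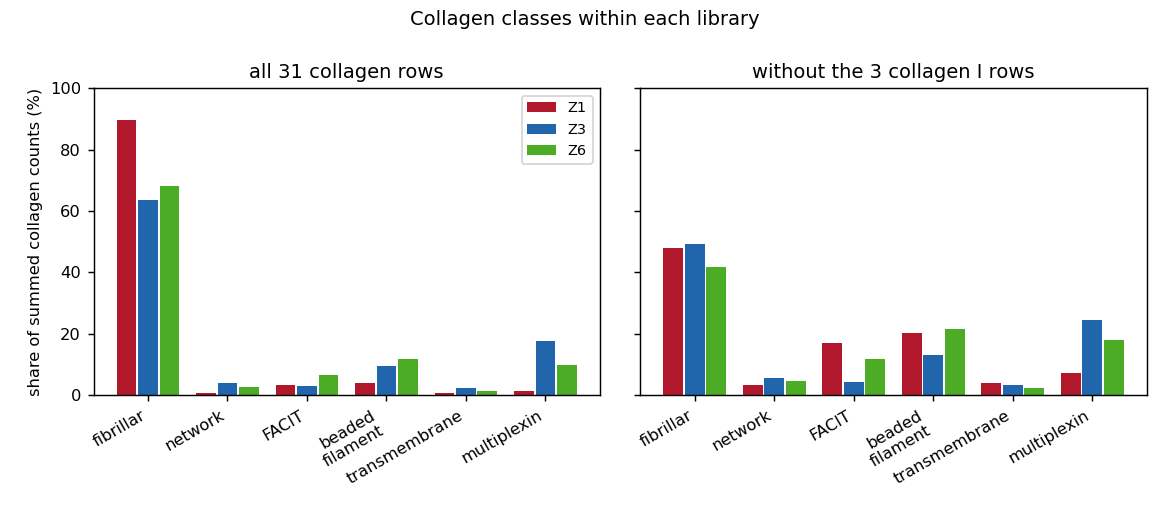
Share of each collagen class in the summed counts (%), by library, for all 31 rows and without the 3 collagen I rows. Fibrillar rows took between 63.7% and 89.8% of the sum of all rows and between 41.7% and 49.2% once collagen I was left out.

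Seen over all classes, the 31 rows fell into 3 sets by their spread, drawn after the values had been seen. In 16 rows Z1 exceeded each other library by over 3-fold, and these were all 3 rows of collagen I, 3 of 4 of collagen V, 3 of 5 of collagen IV, col6a2, col6a3, col12a1b, col16a1, both rows of collagen XVII and col18a1. In 6 rows no library exceeded another by over 3-fold on the plus 1 scale, and these were col27a1a, col27a1b, col15a1b, col4a2, col6a1 and col6a6. The other 9 rows varied over 3-fold without that pattern. Of all rows, 3 were lowest in Z1 alone, namely COL13A1, col19a1 and col4a2, and col8a1b was at 0 reads in both Z1 and Z3. No share over all genes is given for rows lowest in Z1.

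Markers of some other cell types were also highest in Z1, and those of others were not. Lists for each tissue were searched by symbol, and the normalized counts of the genes found were summed. All 7 epidermis markers found, of 12 listed, were highest in Z1 (34.5% of all genes), 5 of them by over 3-fold against each other library (9.09% of all genes), and they summed to 30825 normalized counts there, 2353 in Z3 and 2754 in Z6. Among them, krt5, a keratin of basal epidermis, had 17257, 49.6 and 109.8 normalized counts, and the claudin cldne had 506 reads in Z1 and 0 reads in the other libraries. Of the list for perichondrium, fibroblasts and tendon, 13 of 14 were found, 7 of them highest in Z1 (34.5% of all genes). Over 3-fold higher in Z1 than in each other library were 4 (9.09% of all genes), dcn, postna, postnb and lum. The 13 genes summed to 26183, 3899 and 5251 normalized counts. There lum, a proteoglycan of connective tissue fibrils, had 2122, 20.9 and 27.5 normalized counts, postna had 5126, 1 and 5 reads, and scxa, a tendon factor, was at 0 reads in Z1. The other 6 genes found were highest in Z3 or Z6, scxa, pdgfra, twist1a, prrx1a, prrx1b and fap.

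Osteoblast and bone markers were divided. Of 12 listed, 8 were found, 4 of them highest in Z1 (34.5% of all genes). Their sums were 1495 normalized counts in Z1, 759 in Z3 and 1791 in Z6. The secreted phosphoprotein gene spp1 had 470.1, 29.7 and 35.0 normalized counts in Z1, Z3 and Z6. For phex, a gene of bone mineralization, there were 119.7, 6.61 and 11.4, and both genes were over 3-fold higher in Z1 (9.09% of all genes). The osteoblast factor sp7 had 0 reads in Z1, against 27 and 47 in Z3 and Z6, and panx3 had 0 reads in Z1 and Z3. The single notochord marker found of 5, cav1, which many other cells also express, had 1414, 122 and 566 normalized counts. Of the endothelial list, 5 of 7 were found, and 1 of them reached 10 normalized counts in all libraries (67.8% of all genes). In Z1, 3 of the 5 were highest (34.5% of all genes), and egfl7 and sox7 were over 3-fold higher there than in each other library (9.09% of all genes). The endothelial markers summed to 553, 351 and 384, with egfl7 at 0 reads in Z3. Skeletal muscle (10 of 13 found) summed to 9195, 4274 and 15226, nerve and glia (11 of 13, plp1a at 0 reads in Z1) to 4381, 6196 and 8797, and blood (6 of 8, lyz at 0 reads in Z1) to 34608, 5533 and 37218 normalized counts. Highest in Z1 were 3 of the muscle, 1 of the nerve and 1 of the blood genes found (34.5% of all genes). That blood gene, hbaa1, had 32434 of the 34608 normalized counts in Z1. Of the 18 chondrocyte markers found, 3 were highest in Z1. The part of other cell types in the collagen levels was not tested.

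**Figure D4:**
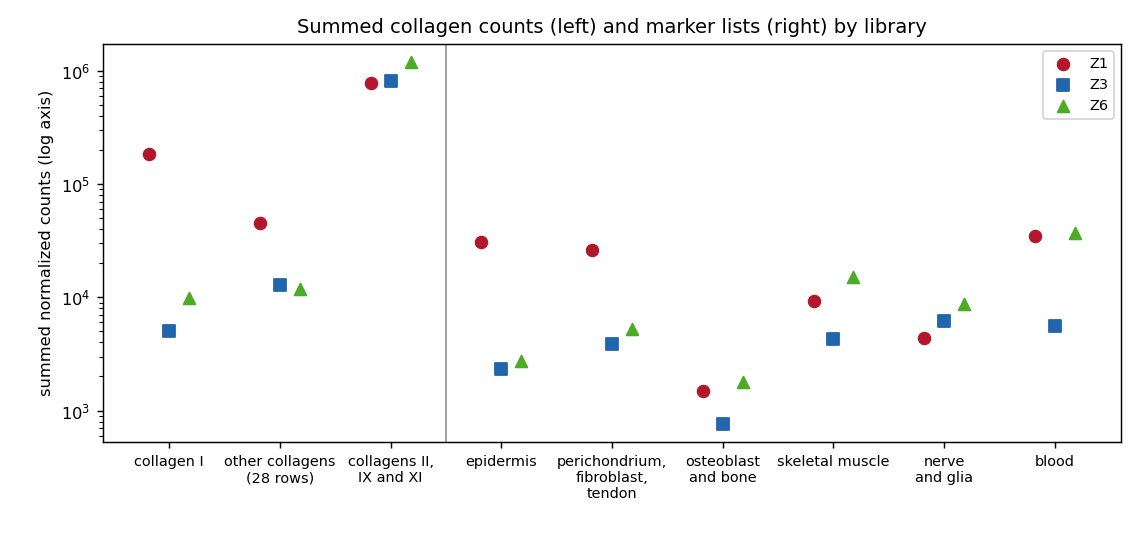
Summed normalized counts (log axis) of collagen I, of the other 28 collagen rows and of collagens II, IX and XI, and of 6 marker lists, with 1 point per library. Z1 is highest for collagen I, for the other 28 rows and for the epidermis and perichondrium lists, whereas collagens II, IX and XI range from 787746 to 1204126.

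Genes that make, process and bind collagens had smaller ratios between libraries than the collagen rows. Their median highest-to-lowest ratio was 2.45, beside 3.32 over all genes, for rows whose mean reached 10 normalized counts. By role the median was 1.87 for hydroxylation, glycosylation and folding, 1.90 for crosslinking, 4.66 for propeptide removal and 5.52 for receptors. Of 49 such genes looked for, 34 rows were found, and 29 of them reached 10 normalized counts in all libraries (67.8% of all genes). Among the 33 rows whose mean reached 10 normalized counts, 13 differed over 3-fold between libraries (54.2% of genes) and 5 were over 3-fold higher in Z1 than in each other library (9.03% of genes). Of these 5, ADAMTS14 and itga2.2 reached 10 normalized counts in Z1 alone and so passed the minimum mean through it, which favours a difference. The receptor row itgb1b, with 67.6 normalized counts in Z1, 16.5 in Z3 and 0 reads in Z6, would also miss that mean without Z1. The proportion past 3-fold was 2 of 14 rows for hydroxylation, glycosylation and folding, 3 of 5 for propeptide removal, 2 of 5 for crosslinking and 6 of 9 for receptors.

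Of the 12 rows with the most counts, 3 from each role, 10 stayed within 3-fold, whereas 54.2% of genes whose mean reached 10 normalized counts exceeded it. These 12 rows were picked for their counts and do not stand for their roles. All 3 receptors among them stayed within 3-fold, but 6 of all 9 receptor rows exceeded it. The prolyl hydroxylase and isomerase subunit p4hb had 52267 ± 9049 normalized counts (SD, n = 3), the collagen chaperone serpinh1b 2553 ± 453 and crtap, a part of the prolyl 3-hydroxylase complex, 2528 ± 539. For propeptide removal, the protease gene bmp1a had 1945 ± 96.6 and adamts3 421 ± 76.2 normalized counts, whereas the enhancer protein gene pcolce2b had 1608, 1874 and 7503 normalized counts in Z1, Z3 and Z6. For crosslinking by lysyl oxidases, loxl3b had 4256, 8098 and 4274 normalized counts, loxl2b 950.3 ± 185.5 and loxl1 808, 1360.4 and 186. Of the receptors, the discoidin domain receptor genes ddr2b and ddr2a had 1201 ± 152 and 983 ± 69.9 normalized counts, and itga10, the α subunit of a collagen receptor of chondrocytes, had 638 ± 186. The integrin α genes itga1 and itga2.2, by contrast, were highest in Z1. There were 179.5, 25.3 and 13.3 normalized counts for itga1 and 64, 0 and 0 reads for itga2.2. The receptor gene ddr2l was also highest in Z1, with 1207, 239 and 218 normalized counts. The other integrin α genes, itga10 and itga11a, were lowest in Z1, and itga11a had 18.3, 103.5 and 108.9 normalized counts.

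The coverage of the family was partial. RefSeq lists 49 zebrafish genes in these collagen types, and 29 of them were matched to a row by symbol or synonym. The rows COL5A2 (2 of 2) and col6a6 had no match in RefSeq by name, and reads of paralogs may have been split or shared between rows. Of the 20 genes not matched, 1 is col5a2a, which may be the gene of the row COL5A2 (2 of 2), although the name does not settle it. Other genes not matched, and so not analysed here under their names, are col4a3, col5a3b, col7a1, col8a1a, col14a1b, col15a1a, col18a1b and col24a1. Collagens VII, XXI, XXII, XXIII, XXIV, XXVI and XXVIII were therefore not analysed here.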

How the data were processed

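The deposited table holds 1 column of raw counts of reads per gene symbol for each of the 3 libraries, which the authors made without normalization. The submitters' processing notes name Trimmomatic 0.36, the genome build Zv9 and edgeR. The aligner, counting program and annotation are not given in the sources used here. The RNA was amplified for 1 round before libraries were made. Because transcript lengths were not at hand, no counts per kilobase were computed and no coordinates are given. RefSeq names of the assembly GRCz12tu served only for names and neighbours.

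Counts were normalized over all genes by TMM in edgeR 4.0.16 (R 4.3.3), with DESeq2 1.42.0 size factors as an alternative. Other steps used Python 3.11.15 with pandas 2.3.3 and scipy 1.17.1. The threshold was 10 normalized counts in every library. Ratios between libraries used a pseudocount of 1 and rows whose mean reached 10 normalized counts. Depth was between 18920027 and 25604897 counts. Counting intervals of ratios are exact (Clopper-Pearson, 95%), and those of shares are Wilson intervals. Against a library with 0 reads, 3 reads were assumed. With 3 libraries an exact sign-flip test cannot go below p = 0.25, so none was made. The code for normalization and dispersion was run on simulated counts in which few genes changed between libraries. Such a run cannot show that TMM holds for libraries that differ as widely as these.

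The members and gene lists were chosen with earlier results of these data known. Named with values were all rows of collagens I, IV, V, VI, XII and XVIII, every row whose mean reached 100 normalized counts, the 3 rows with the largest ratio, and the 3 genes with the most counts in each role of the collagen-processing list. The rows of collagens VIII and XIX, COL25A1, itga1, itga2.2, itga11a, itgb1b, ddr2l, ADAMTS14 and the marker genes shown were named after their values were seen. Alternatives were other scalings, thresholds, pseudocounts and filters, and leaving out each library.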

Additional observations from a re-analysis of the deposited data

How the results depend on the processing

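No paired analysis was possible because only 1 condition was sampled. The number of collagen rows above the threshold was 20 and ranged from 17 to 29 over other scalings and minimums and from 21 to 23 with 1 library left out. No share over all genes is given for these alternatives. The number of rows that differed over 3-fold, 24, stayed between 19 and 26 under other scalings, pseudocounts, folds and filters. It ranged from 10 (without Z1) to 22 (without Z6) with 1 library left out. Of genes with a mean of at least 10, between 54.1% and 56.1% differed over 3-fold under the scalings tried. Z6 was the highest library for 5 rows under total-count scaling and for 1 row under total-count scaling without AC024175.4, against 2 under TMM. The median log2 ratio of Z1 to Z3 and Z6 over all genes moved to -0.45 under total-count scaling, from -0.15 under TMM, and that of the collagen rows to 2.07, from 2.86. Z1 exceeded each other library over 3-fold in 15 or 16 rows under each scaling and pseudocount tried, alternatives chosen after seeing the data. The share over all genes moved with the scaling, from 7.06% under total-count scaling to 10.2% under total-count scaling without AC024175.4. No class share moved by more than its SD over libraries when other row filters were used. With 1 of 3 libraries left out, a mean share cannot move past that SD, whatever the values. Leaving out libraries therefore says nothing here about how stable the shares are. Other scalings moved none of 155 gene levels past the SD between libraries. That SD is a loose measure, since it ran from 20.8% of the mean (col6a1) to 173% (col8a1b). Leaving out 1 library moved the mean of 22 of 31 rows by over 1.5 times, 19 of them when Z1 was left out. A mean can move well past 1.5 times only when the highest library is left out, so these counts largely restate which library was highest. Without Z1, col1a1a fell to 4929 normalized counts against 22162 and col1a1b to 1147 against 31337. The log2 ratio of the 31 rows to collagens II, IX and XI, -4.35, was -5.65 without Z1. The common dispersion in edgeR, 0.363, was 0.846 over all genes and from 0.288 to 0.399 with 1 library left out. Dispersions of single genes were estimated for 20 collagen rows, with a median of 0.409, beside 0.391 over 9919 genes. Of the 20 rows, 11 were above that all-gene median. These estimates are drawn towards the trend over all genes, so similar medians do not show that the rows varied like other genes. The 11 rows below the threshold in at least 1 library had no estimate. Among them were col5a3a, col17a1a and col18a1, which had the largest highest-to-lowest ratios. The median of the 20 rows therefore does not describe these. Counts per kilobase were not run. Depth limits col8a1b, col6a6 and col5a2b, and the low values of col4a4, col17a1a and col18a1, which rest on 1 to 4 reads in Z3.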
